A study of Mus musculus with 16 samples.

Results

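Subunits of the Arp2/3 actin complex were followed in spleen and thymus of EMP3 mutant mice. The members were the array probes with a gene symbol that starts with Arpc1 to Arpc5 or is Actr2 or Actr3, which gave 9 probes for 5 genes, out of 20794 probes and 9030 named genes. Arpc5l had 4 of these probes, Actr3 had 2, and Arpc5, Arpc1a and Arpc4 had 1 each. Probes for Actr2, Arpc1b, Arpc2 and Arpc3 carried no such name in the platform annotation and were not analysed here. This gene family was picked from the earlier result that 1 Arpc5l probe stood among the highest spleen ratios of the array. The spleen values of the family are therefore given as a description. They also enter test calls given below, for spleen and for spleen minus thymus, and the pick helped to set the call of that probe.

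The Arp2/3 complex starts a new actin filament on the side of an existing one and so builds the branched networks that push a cell's membrane forward. Its core is a pair of actin-related proteins, encoded by Actr2 and Actr3, held by the ARPC subunits. Some ARPC positions can be filled by either of 2 related proteins, Arpc1a or Arpc1b and Arpc5 or Arpc5l. In lymphoid organs the complex is known for its part in immune synapse formation, migration and phagocytosis.

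Mutant RNA was hybridised on 16 two-colour arrays, 8 per tissue, against RNA of a wild-type pool of the same tissue. The 4 mutant mice and the 4 mice that the channel labels give for the pool were male and 17 weeks old, and the labelling protocol instead gives the pool as 6 control animals. Each mutant mouse gave a spleen and a thymus and had 2 arrays per tissue, 1 with its RNA in Cy5 and 1 with its RNA in Cy3. The kind of mutation is not named in the labels, nor is any kinship between mutant and pool mice. A value is a log2 ratio, so that 1 stands for a doubling, and it was read as mutant over pool. The labels state neither the log base nor the direction, and if the pool is the numerator every sign below is turned. The mean of a mouse's 2 arrays was taken as 1 replicate. Because all mutants of a tissue met the same pool, a test against 0 leaves out the spread among control mice.

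Of the 20794 probes, 20046 to 20639 were measured on an array, and array medians ran from -0.023 to 0.086. All 9 Arp2/3 probes had a value on every array. In thymus, the Cy5 and Cy3 arrays of mouse 2 mirrored one another (r = -0.922 over probes) and were left out, which gave 4 mice in spleen and 3 in thymus. For 83.5% of probes the sum of these 2 arrays lay close to the median of such sums, against 1.28% to 5.8% in the other pairs. A further doubt concerns the sign on the Cy3 arrays, which was taken as already turned by the authors. Under that reading the paired arrays had a correlation over probes of 0.0518 to 0.424 in the 4 spleens but of -0.44 to -0.249 in the 3 thymi kept, so the thymus arrays do not settle it. Values under the other reading, with every Cy3 array turned, are given with the results. Under that other reading the mirrored thymus arrays of mouse 2 would be in agreement, so leaving them out rests on the first reading. They were left out of the turned values as well. The 2 probes of Emp3, the mutated gene, were at 0.20 ± 0.25 and 0.27 ± 0.38 in spleen and at -0.04 ± 0.10 and 0.05 ± 0.05 in thymus (SD, n = 4 and n = 3), which does not check the labels because neither the mutation nor the stretch covered by the probes is given. The series title and design name thymus and brain, while the sample labels name spleen and thymus, and the labels were followed. Spleen and thymus were not checked against their defining markers, since ratios hold no levels, so the naming of the tissues rests on the labels alone.

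In spleen, 1 of the 4 Arpc5l probes stood far above its pool and above every other Arp2/3 probe. Probe 4040 was at 1.26, 1.45, 1.16 and 1.44 in mice 1 to 4, a mean of 1.33 ± 0.14 (SD, n = 4). All 4 mice lay above 1, and of the 20127 probes tested in spleen 32 had a mean above 1. It ranked 6 among them. On single arrays it was at 1.01, 1.25, 0.91 and 1.38 with the mutant in Cy5, and at 1.51, 1.65, 1.40 and 1.496 with the mutant in Cy3. The arrays of both dye orientations were high, and within each mouse the Cy3 array was the higher one.

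The other 3 Arpc5l probes did not share this value. Probe 2106 was at 0.25, -0.10, 0.14 and 0.10 in mice 1 to 4, with a mean of 0.10 ± 0.14 (SD, n = 4). Probe 4743 was at -0.002, -0.23, -0.13 and -0.05, with a mean of -0.10 ± 0.10 (SD, n = 4). Probe 17359 was at -0.22, 0.0005, -0.02 and -0.08, with a mean of -0.08 ± 0.10 (SD, n = 4). The highest of these 12 mouse values is lower by more than 0.9 than the lowest of probe 4040. Since probe 4040 was picked for its high spleen value, this gap is a description. Averaged over its 4 probes, Arpc5l was at 0.32, 0.28, 0.29 and 0.35, and without probe 4040 the average was 0.01, -0.11, -0.004 and -0.01. An average over the gene's probes was thus set by 1 of them.

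**Figure D1:**
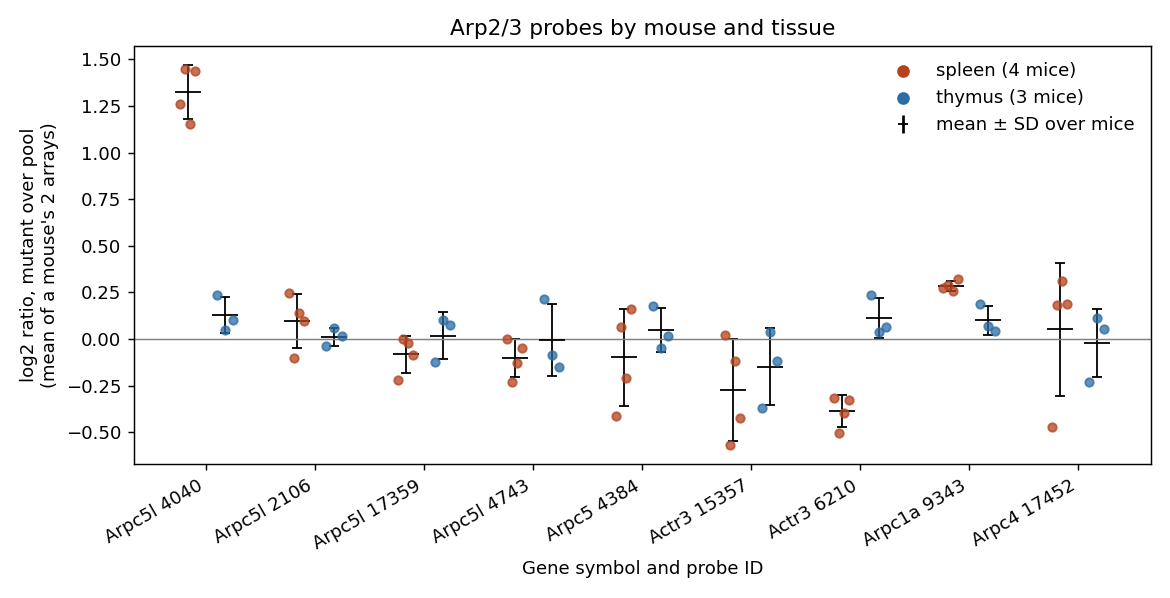
Log2 ratio of mutant over pool (vertical axis) for each of the 9 Arp2/3 probes (horizontal axis), 1 point per mouse (mean of its 2 arrays), with spleen in red (n = 4), thymus in blue (n = 3) and bars for the mean ± SD. The spleen points of Arpc5l probe 4040 lie between 1.16 and 1.45, and no other point of either tissue is above 0.32.

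Probe 4743 of Arpc5l held large values that cancelled between the dyes. Its spleen arrays were at -0.83, -0.29, -0.81 and -0.47 with the mutant in Cy5 and at 0.82, -0.17, 0.55 and 0.38 with the mutant in Cy3. All 4 Cy5 arrays were below 0, and 3 of the 4 Cy3 arrays were above it. With the Cy3 arrays turned, this probe would be at -0.50 in spleen and probe 4040 at -0.19. For probe 4040 the reading of the dye exchange therefore decides whether a difference from the pool is seen at all: it is at 1.33 if the sign was already turned and at -0.19 if not. The other 2 Arpc5l probes would be at -0.02 (2106) and 0.15 (17359).

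Arpc5, the paralogue that fills the same position in the complex as Arpc5l, was measured by probe 4384. It was at -0.41, 0.07, -0.21 and 0.16 in mice 1 to 4 in spleen, a mean of -0.10 ± 0.26 (SD, n = 4). The mice lay on both sides of 0, so Arpc5 neither followed the high Arpc5l probe nor moved against it in all mice. In thymus it was at 0.18, -0.05 and 0.02 in mice 1, 3 and 4.

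Actr3 encodes Arp3, an actin-related protein of the core. Its probe 6210 was at -0.32, -0.50, -0.40 and -0.33 in spleen, a mean of -0.39 ± 0.09 (SD, n = 4), and all 8 spleen arrays were below 0, from -0.58 to -0.23. The second Actr3 probe, 15357, was at 0.02, -0.57, -0.12 and -0.43, a mean of -0.27 ± 0.27 (SD, n = 4). Both means were below 0, and for probe 15357 the direction was shared by 3 of the 4 mice. With the Cy3 arrays turned, the means would be -0.02 for probe 6210 and 0.11 for probe 15357.

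Arpc1a encodes the propeller-shaped subunit of the complex. Its probe 9343 was at 0.27, 0.29, 0.26 and 0.32 in spleen, a mean of 0.28 ± 0.03 (SD, n = 4), the smallest spread between mice of the 9 probes. All 8 arrays were above 0, from 0.03 to 0.55. Among its 9 measured neighbours in probe ID order, within 5 IDs on either side, the median was 0.28 as well, and with a running median over neighbouring IDs removed from each array Arpc1a was at 0.12 and no longer passed the threshold used below. Arpc1a would be at 0.08 with the Cy3 arrays turned. The part of the array position in this value was not tested further.

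Arpc4 encodes a subunit of the central clamp of the complex. Its probe 17452 was at -0.47 in mouse 1 and at 0.18, 0.31 and 0.19 in mice 2, 3 and 4, a mean of 0.05 ± 0.36 (SD, n = 4). Mouse 1 stood apart from the rest, and without it the mean was 0.23. The 2 dye orientations disagreed: the spleen arrays with the mutant in Cy5 were at 0.36, 1.09, 0.55 and 0.42, and those with the mutant in Cy3 at -1.30, -0.73, 0.07 and -0.04. Every Cy5 array was above every Cy3 array, and the mean difference between them was 1.11. Arpc4 would be at 0.55 with the Cy3 arrays turned.

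**Figure D2:**
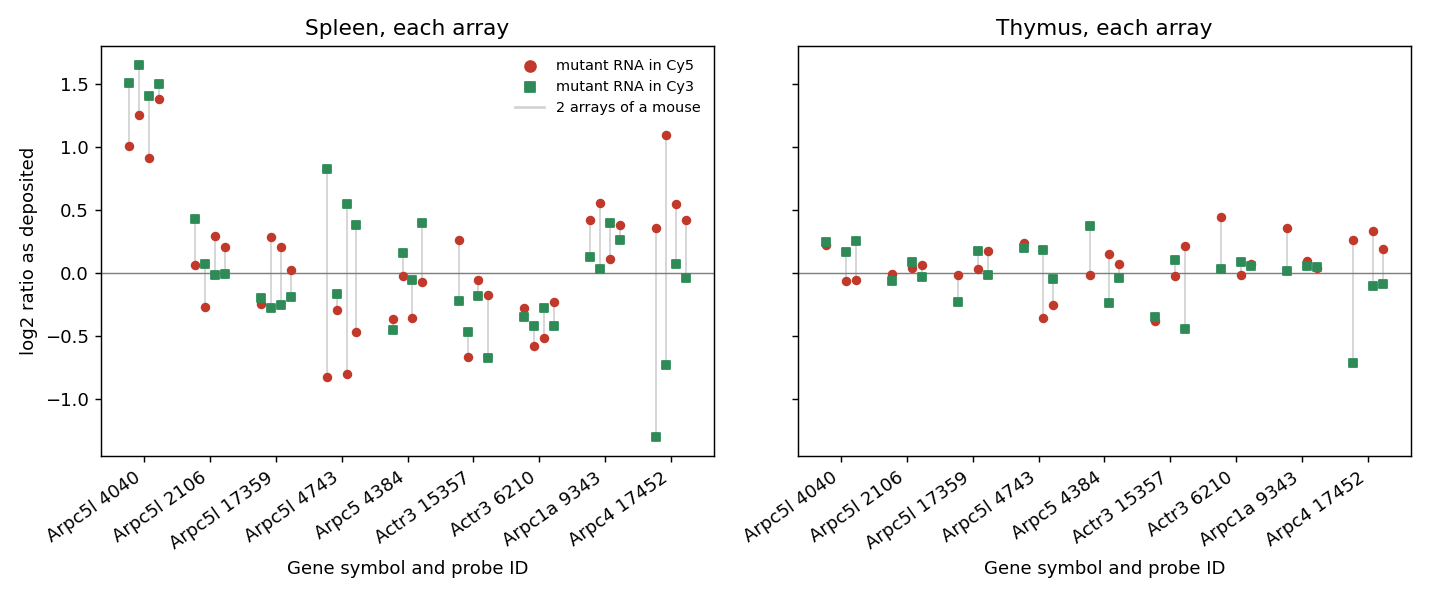
Log2 ratio as deposited on each array (vertical axis) for the 9 Arp2/3 probes (horizontal axis) in spleen (left) and thymus (right), with red circles for the mutant in Cy5, green squares for the mutant in Cy3 and grey lines joining the 2 arrays of a mouse. Arpc5l probe 4040 is high in spleen on both kinds of array (0.91 to 1.65), while Arpc5l probe 4743 and Arpc4 have their arrays on opposite sides of 0 in 3 of the 4 spleens.

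Read as a complex, the spleen subunits did not share the level of probe 4040. In mice 1 to 4 the highest of the other 8 probes reached 0.27, 0.29, 0.31 and 0.32. Probe 4040 exceeded it by 0.99, 1.16, 0.84 and 1.12. The median over all 9 probes was -0.08, against 0.04 over all probes tested in spleen,. At an adjusted p of 0.05 in limma, 3 of the 9 were called in spleen, where 25.3% of all tested probes were. Arpc5l probe 4040 and Arpc1a were the higher ones (13.4% of all probes passed as higher) and Actr3 probe 6210 the lower one (11.9% passed as lower). Since the family was picked on this contrast, nothing is read from the count. Arpc1a did not pass without mouse 2 or without mouse 4. With the Cy3 arrays turned, 0 of the 9 passed in limma, where 1 probe of the whole array did.

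**Figure D3:**
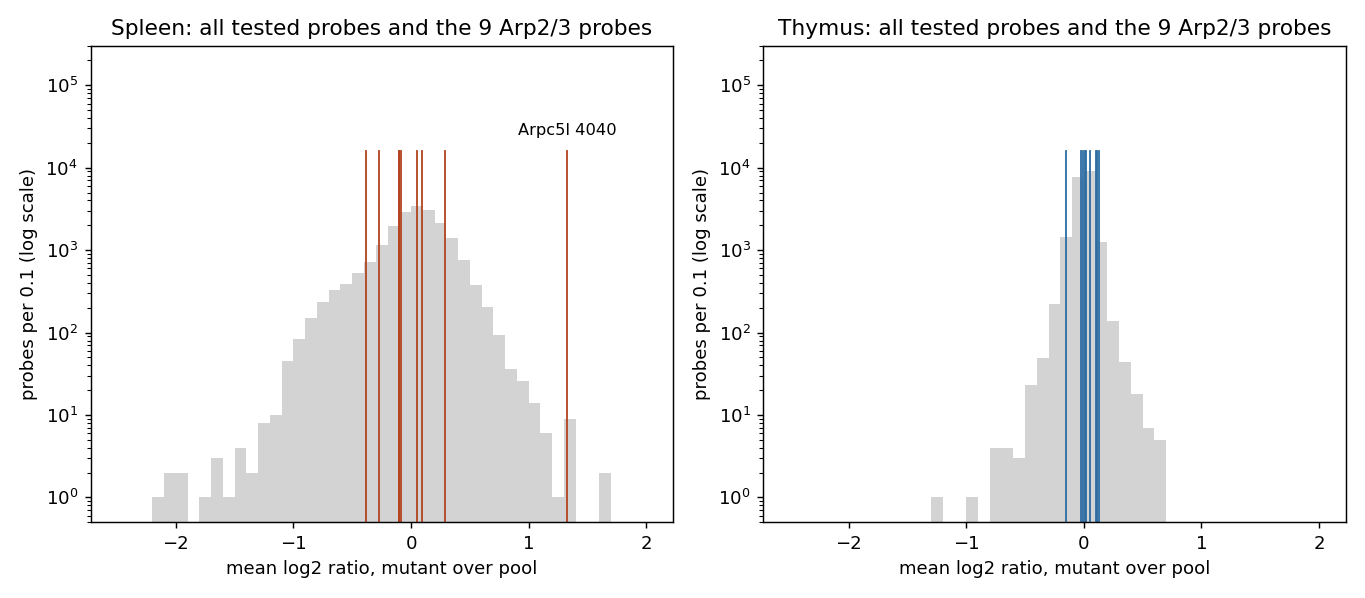
Number of probes (vertical axis, log scale) by mean log2 ratio of mutant over pool (horizontal axis, steps of 0.1) over all probes tested, in spleen (left, 20127) and thymus (right, 20130), with a vertical line at each of the 9 Arp2/3 probes. In spleen Arpc5l probe 4040 stands at 1.33 and the other 8 lie between -0.39 and 0.28, and in thymus all 9 lie between -0.15 and 0.13.

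In thymus, no Arp2/3 probe differed from the pool by the test. Limma called 0 of 9, against 0% of the 20130 probes tested, and at an unadjusted p under 0.05 there were 0 of 9 and 725 of all probes. Probe 4040 of Arpc5l was at 0.23, 0.05 and 0.10 in mice 1, 3 and 4, a mean of 0.13 ± 0.09 (SD, n = 3; adjusted p = 0.866 in limma). All 3 mice were above 0, at less than the lowest spleen value by more than 0.9. Its 95% interval of -0.006 to 0.26 reaches up to a 1.2-fold difference from the pool and does not reach the level seen in spleen. With the Cy3 arrays turned the thymus value was -0.09.

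The other Arpc5l probes were near the pool in thymus. In mice 1, 3 and 4, probe 2106 had log2 ratios of -0.04, 0.06 and 0.01 (mean 0.01 ± 0.05, SD, n = 3). Probe 4743 had 0.21, -0.09 and -0.15 (-0.01 ± 0.19) and probe 17359 had -0.12, 0.10 and 0.08 (0.02 ± 0.12). None of the 3 had all mice on 1 side of 0. Actr3 had 0.24, 0.04 and 0.06 on probe 6210 (0.11 ± 0.11) and -0.37, 0.04 and -0.12 on probe 15357 (-0.15 ± 0.21), so the means of its 2 probes lay on opposite sides of 0. Arpc1a was at 0.19, 0.07 and 0.04 in mice 1, 3 and 4, and all 6 of its thymus arrays were above 0. Arpc5 had a mean of 0.05 ± 0.12. Arpc4 was at -0.23, 0.11 and 0.05, a mean of -0.02 ± 0.18, and as in spleen its mouse 1 was the lowest. For these 8 probes the adjusted p in limma ran from 0.866 to 0.989. The widest of the 95% intervals was that of Actr3 probe 15357, -0.36 to 0.06, and differences within such an interval could not be seen with 3 mice. The left-out thymus arrays of mouse 2 had probe 4040 at -0.12 with the mutant in Cy5 and at 0.20 with the mutant in Cy3.

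The same mice gave both organs. The difference between the tissues was fitted over 4 spleens and 3 thymi as separate samples, with a spread shared by both tissues. It contains the spleen values for which the family was picked. Of the 9 probes, 2 passed an adjusted p of 0.05 in limma, against 13.9% of the 19948 probes tested. For Arpc5l probe 4040, spleen minus thymus was 1.197 ± 0.10 (SE). That value is a description, and it was -0.10 with the Cy3 arrays turned. The other 3 Arpc5l probes had differences of 0.08 ± 0.10 (2106), -0.10 ± 0.11 (4743) and -0.10 ± 0.09 (17359, all SE). Within each of mice 1, 3 and 4, probe 4040 was higher in spleen than in thymus, at 1.26 against 0.23, 1.16 against 0.05 and 1.44 against 0.10.

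Actr3 probe 6210 was the other probe past the threshold, lower in spleen than in thymus by a log2 difference of -0.50 ± 0.09 (SE; adjusted p = 0.0107 in limma). The 4 spleens were at -0.50 to -0.32 and the 3 thymi at 0.04 to 0.24. The call ended in 8 of the alternatives: with the mouse as a block (-0.46, adjusted p = 0.0651), without mouse 3 (-0.53, adjusted p = 0.0713), without mouse 4 (-0.54, adjusted p = 0.0969), with the variance of the pool added (adjusted p = 0.0752), in the 1.2-fold test (adjusted p = 0.252), with only Cy5 or only Cy3 arrays (adjusted p = 0.0916 and 0.0903), and with the Cy3 arrays turned (-0.07, adjusted p = 0.96). The second Actr3 probe did not follow, with a difference of -0.12 ± 0.16 (SE; adjusted p = 0.65). Arpc1a differed by 0.18 ± 0.07 (SE; adjusted p = 0.142), and Arpc5 and Arpc4 by -0.15 ± 0.14 and 0.07 ± 0.19 (SE; adjusted p = 0.538 and 0.833). Without mouse 4 no probe of the array passed for the difference.

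Likeness to probe 4040 was measured as the root mean square difference over the 7 means (4 spleens and 3 thymi), among 11895 probes with a symbol and a value in every mouse. The closest was Selenop, a plasma selenium transport protein, on probe 5893 (0.12). Next came Faf2, a protein of endoplasmic reticulum degradation, on probe 19164 (0.17), the interferon receptor chain Ifnar2 on probe 19223 (0.27), the muscle troponin Tnnc2 on probe 19232 (0.30) and the mitochondrial ribosomal protein Mrpl49 on probe 5876 (0.32). Their spleen means lay between 0.92 and 1.38, and their thymus means between 0.04 and 0.11. Values near those of probe 4040 follow from ranking by likeness to it. With the Cy3 arrays turned, the spleen means of these 5 would lie between -0.18 and 0.04. Of the Arp2/3 probes, the closest was Arpc1a at 0.79, and the other Arpc5l probes were at 0.95, 1.08 and 1.09. Other probes of the named genes did not share the pattern either: the spleen means were 0.06 and -0.19 for Faf2, -0.02 and 0.14 for Ifnar2 and 0.20 for Mrpl49. A second probe of Selenop or Tnnc2 was not found under those symbols. None of the 5 probes lies within 5 IDs of another, the distance used for neighbours here. Probes 5876 and 5893 lie in the same wider stretch of IDs, as do 19164, 19223 and 19232. The part of array position in their values was not tested.

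The neighbours of probe 4040 in ID order were looked at for the same reason. The 10 probes within 5 IDs of it had spleen means from -0.45 to 0.75 with a median of 0.06, and 2 of them passed the threshold, 1 in each direction. The highest was annotated to Ing1, a chromatin reader, at 0.75. After the same removal of the running median, probe 4040 was still at 1.32, while Actr3 probe 6210 was at -0.60.

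Regulators of the complex, actins and further actin proteins were counted in 7 lists, with 71 probes of 45 genes tested in spleen. Of these probes 10 were higher (14.1%) and 8 lower (11.3%) past an adjusted p of 0.05 in limma, near the 13.4% and 11.9% of all tested probes, and their median was 0.02. The calls named below are therefore given as values and not as a result about the lists. Of the 71, 0 passed with the Cy3 arrays turned. In thymus 0 of the 7 lists held a called probe. Like the family, the lists were drawn up with earlier spleen results known, and a list with few probes says little.

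In a list of the WASP and WAVE family, which switches the complex on, with its binding partners and cortactin relatives, 1 of 11 probes was higher. It was that of Hcls1, a cortactin relative of blood cells and not a family member, at 0.36 ± 0.07 (SD, n = 4). None of the probes of the family itself (Was, Wasf2, Wasf3 and Whamm) passed. No probe of the list was called lower, and the probe of Was, the founding member of the family, was at -0.18. In the regulatory complex that holds WAVE proteins inactive, 1 of 11 probes was lower, that of Cyfip2 at -0.77 ± 0.11 (SD, n = 4). The other Cyfip2 probes did not pass and were at -0.07, -0.14 and 0.20.

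Among inhibitors and proteins that take branches apart, 3 of 11 probes were higher and 1 lower. The coronins Coro1c (0.36 ± 0.11) and Coro1a (0.34 ± 0.22) were on the higher side, with other probes at 0.07 for Coro1c and at -0.002 and 0.11 for Coro1a that did not pass, and Gmfg, a debranching factor of blood cells, on the lower (-0.32 ± 0.17, SD, n = 4). The third higher probe was that of the coronin Coro2b, at 0.26, and another Gmfg probe was at 0.34 and did not pass. Of 8 actin probes, 3 were higher, all of them for Actg1, with 0.58 ± 0.13 and 0.42 ± 0.10 the largest. Another Actg1 probe, at 0.16, did not pass. The 2 lower ones were for Actb (-0.63 ± 0.24) and the cardiac actin Actc1 (-0.60 ± 0.15, SD, n = 4). The other Actb probe was at 0.96 and did not pass.

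Of 16 probes for filament turnover, 2 were higher, for the capping protein Capzb (0.69 ± 0.22) and the cofilin partner Wdr1 (0.61 ± 0.35), and 4 lower, with the thymosin Tmsb4x (-0.59 ± 0.06) and profilin Pfn1 (-0.58 ± 0.08, SD, n = 4) the largest. Other probes of Tmsb4x (0.08), Pfn1 (-0.004) and Wdr1 (0.35) did not pass. Of 8 probes for other nucleators, the formin Fhod3 was higher (0.53 ± 0.19, SD, n = 4), and of 6 probes for actin-related proteins outside the complex 0 passed. Probes of 1 gene had means on opposite sides of 0 for Actb, Gmfg, Cyfip2 and several more genes of the lists, as within Arpc5l. None of the 7 lists had all its probes on 1 side of 0.

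**Figure D4:**
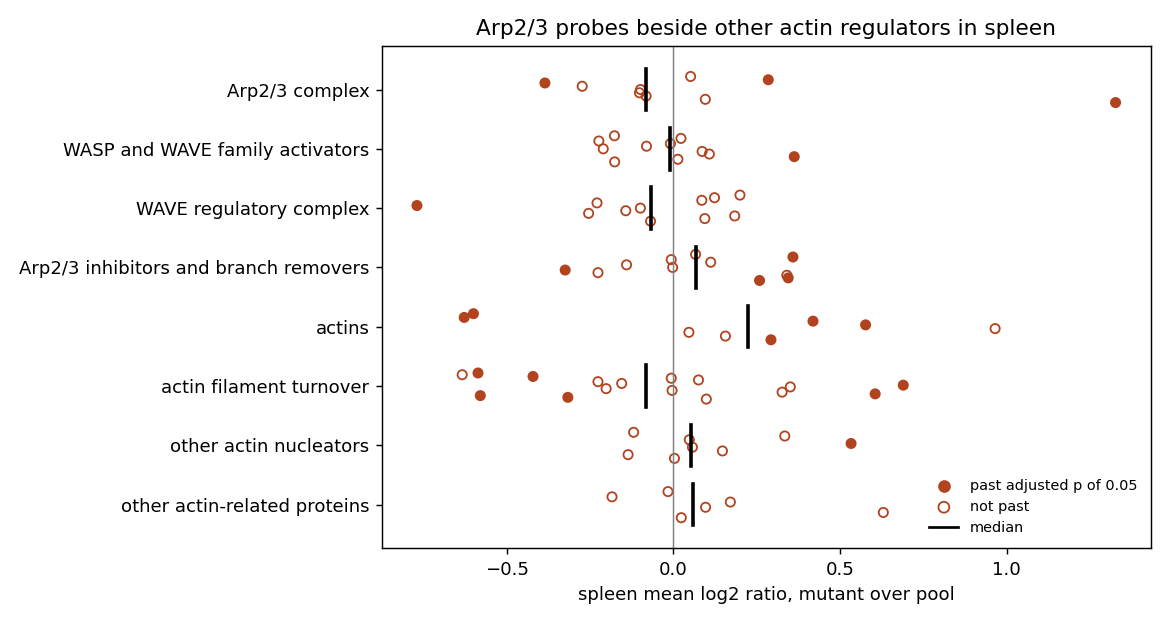
Spleen mean log2 ratio of mutant over pool (horizontal axis) for each probe of the Arp2/3 complex and of 7 lists of actin regulators (vertical axis), filled where the probe passed an adjusted p of 0.05 in limma, with a black bar at each median. Every list lies on both sides of 0, and Arpc5l probe 4040 at 1.33 is the point farthest to the right.

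In whole tissue, fewer cells of a type and less RNA per cell cannot be told apart. Lists of markers were therefore counted in the same fit. In spleen, 0 of 4 B cell probes passed. For T cells 1 of 7 was lower, for neutrophils 3 of 12, for the erythroid lineage 2 of 8 and for stroma 4 of 13. Of 6 macrophage probes 1 was higher (C1qc, 0.63) and 2 lower (Tyrobp, -0.52, and C1qb, -0.42), and 0 of 5 platelet probes passed. Over the 7 lists 1 of 55 probes was higher (1.82%, against 13.4% of all tested probes) and 12 were lower (21.8%, against 11.9%). In thymus 0 passed, and with the Cy3 arrays turned 0 passed in spleen. The list medians in spleen ran from -0.14 (macrophages) to 0.12 (B cells). Some genes with a lower call also had spleen probes that did not pass. Mpo was called at -0.58, with other probes at -0.15 and 0.31. Hba-a1 was called at -0.52, with others at -0.20, -0.04, 0.09 and 0.10. Col1a2 was called at -0.64 and -0.27, with others at 0.03 and 0.02. The other Thy1 and Cdh5 probes were at -0.10 and -0.21. Tyrobp, C1qb, Elane (-0.385), Ngp (-0.42), Klf1 (-0.26) and Des (-0.60) were each called lower on their only tested probe. The part of tissue makeup in the Arp2/3 values was not tested.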

How the data were processed

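The authors deposited 1 table of log ratios of the 2 channels of 16 arrays, read as log2 because 25 to 137 probes per array share 1 constant near 16 bits. These constants were set to missing. Per the labels' protocols, total RNA was labelled indirectly with Cy3 or Cy5; the scanner, the genome build and how background and dye bias were corrected are not given in the labels. Symbols come from the platform annotation (12771 probes with 1 symbol, 8023 with none, 0 with several); all 9030 genes matched the RefSeq table (assembly GRCm38.p6) on Entrez number, and it was used for names only.

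Ratios were averaged over a mouse's arrays where both had a value. Probes with at least 3 mice entered limma 3.58.1 (R 4.3.3), with each tissue alone (in a joint fit spleen borrows the smaller spread of thymus: median SD 0.158 against 0.086) and both together for the difference, with Benjamini-Hochberg adjustment over all probes at 0.05. The fits were also run on simulated data with independent noise per mouse and tissue. Those data held no spread of the pool and no dye effect, so they check neither. The mouse number pairs the tissues, since each animal gave both organs. Only the fit with the mouse as a block used this pairing. The deviations of spleen and thymus from the means of each tissue had correlations of -0.0456, -0.0101 and -0.0864 for mice 1, 3 and 4. Named were every Arp2/3 probe, the 5 probes most like the high one, and per list at most 2 called probes a direction, the largest. Others named beside them (further probes of those genes, Was, Ing1, Coro2b, Elane and Des) were chosen after their values were seen. The members and lists were chosen with earlier results of these data known. Ratios without intensities leave depth unknown, and the number of mice limits precision. A further list of actin regulators is not reported here.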

Additional observations from a re-analysis of the deposited data

Results flagged for a closer look

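Arpc5l probe 4040 differed between the tissues, with a spleen minus thymus difference of 1.197 on the log2 scale in a fit over both tissues. This is the probe for which the family was picked. Actr3 probe 6210 differed the other way, at -0.4975, and that call was lost in the 8 settings given above. The spleen value of Arpc4 (probe 17452) in mouse 1 lay far from those of the other mice: its gap to the nearest of them was 0.833 of the whole range of the 4 mice. Chance alone marks about 1 in 20 such groups, and 9 groups were looked at.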

How the results depend on the processing

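Reading the Cy3 arrays as not yet turned changed the most. Arpc5l probe 4040 went to -0.19 in spleen, -0.092 in thymus and -0.10 for the difference, the spleen median of the Arp2/3 probes to -0.017, and in thymus Actr3 probe 15357 to 0.084 and Arpc4 to 0.28. The calls fell to 1 probe in spleen and 0 for the difference, with 0 Arp2/3 probes in either. Values alike on both arrays of a mouse cancel in the mean when 1 of the arrays is turned. Which reading is right was not tested.

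With only Cy5 arrays or only Cy3 arrays, which each carry the dye effect, probe 4040 was at 1.14 and 1.51 in spleen, the Arp2/3 median at 0.067 and 0.0085, and the difference had 824 and 19 calls, 1 Arp2/3 probe in each. Spleen had 3074 calls with only Cy3 arrays. Arpc1a lost its spleen call with either dye alone, and with only Cy5 arrays Arpc4 (0.60) and Arpc5l probe 4743 (-0.60) were called there. In thymus Arpc4 was at 0.26 with only Cy5 arrays, and with only Cy3 arrays Arpc5l probes 17359, 2106 and 4743 were at -0.025, -0.0057 and 0.11. The 1.2-fold test left 887 calls in spleen and 4 for the difference, and the variance of the pool 1689 and 267, with 1 Arp2/3 probe in each of the 4. With the running median removed the spleen Arp2/3 median was -0.0042 and the call of Arpc1a was lost. With thymus mouse 2 kept the difference had 4553 calls, Arpc1a among them, and Arpc5l probe 4743 was at 0.0029 in thymus. With the mouse as replicate block the difference had 601 calls, 1 of them an Arp2/3 probe (4040, at 1.16), and that of Actr3 probe 6210 was lost; the block changed no other Arp2/3 call.

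Leaving out 1 mouse at a time gave 2351 to 4867 calls in spleen (2351 without mouse 2, 2366 without mouse 4), 0 to 1 in thymus and 0 to 2260 for the difference (10 without mouse 3, 0 without mouse 4), with 2 to 3, 0 and 0 to 2 Arp2/3 probes. Probe 4040 stayed at 1.28 to 1.38 in spleen, and the Arp2/3 median at -0.081 to 0.0062. Thymus values that changed sign ranged from -0.0235 to 0.09 (Arpc5l 17359), -0.0125 to 0.037 (2106), -0.117 to 0.065 (4743), -0.0155 to 0.098 (Arpc5) and -0.088 to 0.083 (Arpc4). Of 325 further values of single probes under the alternatives, 294 kept their sign and 31 did not. Centring, the placeholders, the filter and single measured arrays changed no Arp2/3 call.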
